A study of Mus musculus with 8 samples.

Results

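Krt5, Krt14 and Krt15, the keratin genes of the basal layer of the epidermis, were described in all 8 libraries of RNA sequencing of FACS-isolated epithelial cells from mouse epidermis. They were found by gene symbol and are 3 of the 55 keratin genes and of the 32574 genes in the table. The 4 groups of 2 libraries each were K14 ablation, K14 control, Lrig1 ablation and Lrig1 control. Both ablation groups have the genotype label "Basal lineage ablation" and both control groups the label WT. The sources used here do not give what K14 and Lrig1 stand for (a Cre driver, the cells sorted or the cells ablated), nor the strain, the age, how the cells were ablated or the time since ablation. The design text says that basal epidermal cells were isolated to study clonal expansion and tissue fluidity. The labels do not say whether the libraries of a group came from separate animals, so all p-values reflect the spread between libraries alone, which may be technical.

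Keratins are the intermediate filament proteins of epithelial cells, and every filament is built from pairs of an acidic type I and a basic type II keratin. Krt5 is type II and Krt14 is type I, and together they form the main filament of the basal layer, which is anchored to the basement membrane at hemidesmosomes and to neighbouring cells at desmosomes. In humans, mutations of either gene cause epidermolysis bullosa simplex, in which basal cells break and the skin blisters. Krt15 is another type I keratin of basal cells, found in the basal layer and strongly in the hair follicle bulge, where follicle stem cells lie. Cells that leave the basal layer turn to Krt1 and Krt10, and wounded epidermis makes Krt6a, Krt6b, Krt16 and Krt17.

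The libraries held 6458636 to 11654135 reads, recovered from the deposited values. The ablation pairs were much less alike than the control pairs, with a per-gene chi-square value of 27.7 in K14 ablation and 39.5 in Lrig1 ablation, against 1.57 in K14 control and 2.58 in Lrig1 control. Lrig1 itself had 1734 and 3575 normalised reads in Lrig1 ablation and 4013 and 4194 in Lrig1 control, against 357 and 1486 in K14 ablation and 585 and 656 in K14 control. All 7 basal markers were detected in every group, with a summed level of 90747 to 214960. The 5 suprabasal markers summed to 29110 to 107380 in these libraries, and Krt1 and Krt10 made nearly all of these sums. Transcripts of cells that leave the basal layer were thus present in all libraries, as judged by Krt1 and Krt10. Flg, of the same list, had 2.12 and 2.14 normalised reads in K14 ablation, not above a floor of 3 reads. The sebaceous gland markers summed to 3175 and 17488 in K14 ablation and to 5229 to 12784 in the other libraries. Markers of cells from outside the epithelium had sums of 7.05 to 32.2 for T cells, 85.3 to 300.1 for fibroblasts, 66.9 to 634 for endothelial and mural cells and 156 to 1386 for myeloid and Langerhans cells. The 4 Merkel cell markers summed to 87.7 and 76.1 in K14 ablation and 18.3 and 33.5 in K14 control. In Lrig1 ablation they summed to 98.5 and 27.1, and in Lrig1 control to 24.4 and 19.7. Of these markers only Atoh1 was at 0 in a group, in all groups but K14 control. Kdr of endothelium and Lum of fibroblasts were at 0 in K14 control.

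Krt5 (ENSMUSG00000061527, GRCm38 chromosome 15, 101707070 to 101712898, minus strand) was among the most abundant transcripts of the epidermal cells. Its normalised read count was 80925 and 80623 in K14 ablation and 62722 and 60786 in K14 control. In the Lrig1 populations it was 78928 and 29637 in ablation and 33207 and 37784 in control. The K14 libraries were high and the Lrig1 control libraries low, while the Lrig1 ablation libraries lay at either end, 1 near K14 ablation and 1 below Lrig1 control. Krt5 ranked between 3 and 20 among all genes of a library.

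Krt14 (ENSMUSG00000045545, GRCm38 chromosome 11, 100203162 to 100207548, minus strand) is the type I partner of Krt5 and ran in the same order over the 8 libraries as Krt5. It had 79645 and 75873 normalised reads in K14 ablation and 61325 and 59192 in K14 control. It had 69896 and 28052 in Lrig1 ablation and 41781 and 44253 in Lrig1 control. Again library 1 of Lrig1 ablation was close to the K14 libraries and library 2 was the lowest of all 8.

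Krt15 (ENSMUSG00000054146, GRCm38 chromosome 11, 100131758 to 100135928, minus strand) had another order. Its normalised read count was 3875 and 3900 in K14 ablation and 3151 and 3205 in K14 control, and it was 6735 and 5928 in Lrig1 ablation and 5327 and 5895 in Lrig1 control. All 4 Lrig1 libraries were above all 4 K14 libraries, and both Lrig1 ablation libraries lay above both Lrig1 control libraries. The higher Lrig1 ablation library had 1.14 times the Krt15 level of the lower one, but 2.66 times its Krt5 and 2.49 times its Krt14.

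**Figure D1:**
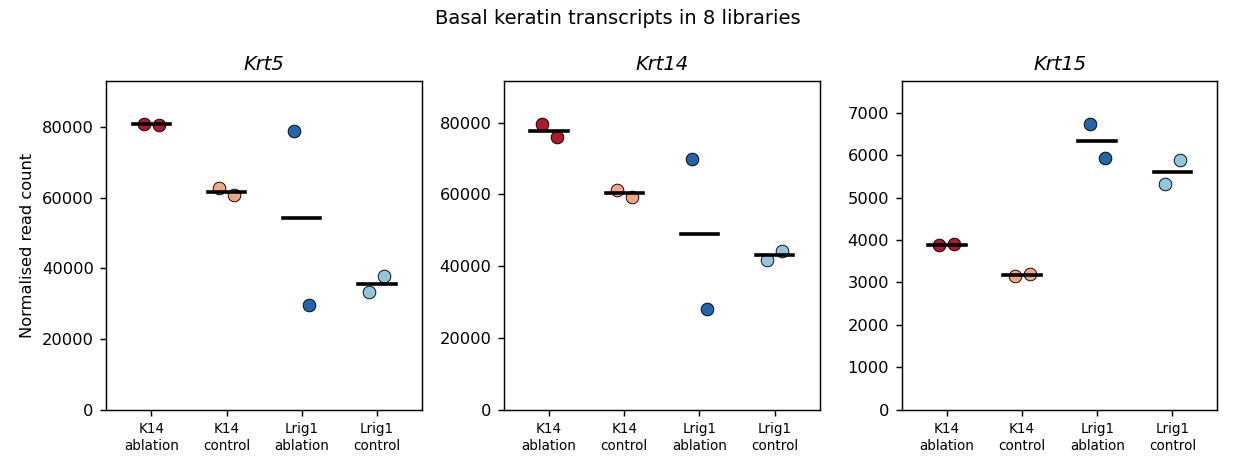
Normalised read count (vertical axis, from 0, its own scale for each gene) of Krt5, Krt14 and Krt15 in the 8 libraries. Points are libraries and lines are group means (n = 2). Krt5 and Krt14 split the Lrig1 ablation libraries, at 78928 and 29637 and at 69896 and 28052, whereas the Krt15 values there are 6735 and 5928.

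Group means give the order of the levels. Krt5 averaged 80774 ± 214 in K14 ablation, 61754 ± 1369 in K14 control, 54283 ± 34854 in Lrig1 ablation and 35496 ± 3237 in Lrig1 control (SD, n = 2 each). Krt14 kept that order, with 77759 ± 2667 in K14 ablation, 60258 ± 1509 in K14 control, 48974 ± 29588 in Lrig1 ablation and 43017 ± 1748 in Lrig1 control. For both genes the range of the Lrig1 ablation libraries covered both control groups, so Lrig1 ablation cannot be placed apart from its neighbours in that order. Krt15 averaged 6332 ± 571 in Lrig1 ablation and 5611 ± 402 in Lrig1 control, and 3888 ± 17.7 in K14 ablation and 3178 ± 37.7 in K14 control. In that order neither Lrig1 ablation against Lrig1 control nor K14 ablation against K14 control passed the test given below for Krt15, and Lrig1 control against K14 ablation was not tested.

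Levels of different genes were set beside each other per kilobase of transcript, with transcripts of 2197 bases for Krt5, 1698 for Krt14 and 1700 for Krt15. Krt14 averaged 45794 ± 1571 normalised reads per kilobase in K14 ablation, where Krt5 averaged 36766 ± 97.2 and Krt15 2287 ± 10.4. In K14 control the level per kilobase was 35488 ± 888 for Krt14, 28108 ± 623 for Krt5 and 1869 ± 22.2 for Krt15. In Lrig1 ablation it was 28842 ± 17425 for Krt14, 24708 ± 15864 for Krt5 and 3724 ± 336 for Krt15, and in Lrig1 control 25334 ± 1030 for Krt14, 16156 ± 1473 for Krt5 and 3301 ± 236 for Krt15. Krt14 was above Krt5 per kilobase in all 8 libraries, and Krt15 was far below both.

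Keratin genes arose by duplication, and long stretches of their coding sequence are identical, so that reads from them cannot be assigned to a single gene by their letters. Of all 30-base windows of a transcript, 30.1% in Krt14, 16.2% in Krt5 and 4.13% in Krt15 also occur in another annotated gene, on either strand. The longest run that Krt14 shares is with Krt16, a wound keratin, and it is shown here with the matching stretch of Krt17 and Krt15. Lines are from GENCODE release M21 transcripts of GRCm38, in the coding sense, all from chromosome 11, minus strand, and capitals mark bases that differ from Krt14.
Krt14: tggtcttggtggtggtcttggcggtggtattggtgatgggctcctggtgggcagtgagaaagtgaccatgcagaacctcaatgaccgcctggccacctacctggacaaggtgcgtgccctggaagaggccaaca
Krt16: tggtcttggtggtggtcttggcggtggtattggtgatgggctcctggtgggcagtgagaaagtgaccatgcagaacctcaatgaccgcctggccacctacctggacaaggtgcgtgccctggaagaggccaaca
Krt17: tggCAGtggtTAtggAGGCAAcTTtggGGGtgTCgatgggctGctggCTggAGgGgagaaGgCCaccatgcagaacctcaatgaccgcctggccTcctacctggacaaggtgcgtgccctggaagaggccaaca
Krt15: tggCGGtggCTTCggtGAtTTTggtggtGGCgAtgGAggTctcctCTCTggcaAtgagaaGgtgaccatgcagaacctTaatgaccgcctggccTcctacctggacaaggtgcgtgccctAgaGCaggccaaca
Krt16 is identical over all 134 bases, while Krt17 differs at 28 and Krt15 at 30 of them. Krt16 was measured at 583 to 8310 normalised reads and Krt17 at 1901 to 12654, against 28052 or more for Krt14. The sources used here do not say how reads with several matching places were counted, so a part of the Krt14 level is uncertain.

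Krt15 has the smallest share of such windows of the 3 basal keratins, and its longest shared run was 59 bases, with Krt25.

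A further entry bears on the Krt5 level. Gm44323, annotated as a miRNA gene of 129 bases on the plus strand (GRCm38 chromosome 15, 101710274 to 101710402), lies wholly opposite coding bases of Krt5. Those Krt5 bases are printed in the coding sense, from chromosome 15, minus strand, because they can be read as either gene when strand is not used.
Krt5 opposite Gm44323: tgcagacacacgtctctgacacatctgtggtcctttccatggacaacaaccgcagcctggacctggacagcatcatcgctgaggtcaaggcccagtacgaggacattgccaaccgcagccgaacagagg
Gm44323 had 25222 and 25807 normalised reads in K14 ablation and 21138 and 19737 in K14 control, and 25832 and 10965 in Lrig1 ablation and 13875 and 14096 in Lrig1 control. That is 31.2 to 41.8% of the Krt5 value of the same library, and the entry is high and low in the same libraries as Krt5. Its correlation with Krt5 on the log2 scale was 0.991 across the 8 libraries, as a description of values that share libraries and genome position. The sources used here do not give the strand setting of the counting, so reads of this entry and of Krt5 cannot be told apart. With Gm44323 added to Krt5, the Krt5 difference was 0.37 for K14 ablation, 0.40 for Lrig1 ablation and -0.73 for Lrig1 control against K14 control (log2, limma adjusted p = 0.759, 0.666 and 0.354), and no call changed.

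**Figure D2:**
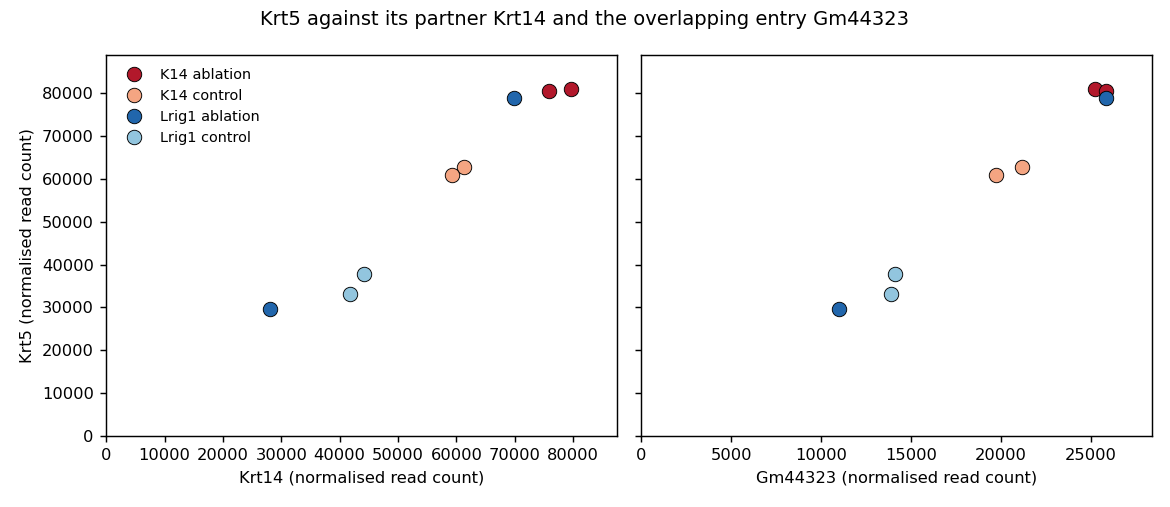
Krt5 (vertical axis, normalised read count) against Krt14 (left) and Gm44323 (right) in the 8 libraries, with points coloured by group and all axes from 0. Both lie close to a rising line, with the Lrig1 ablation libraries at 78928 and 29637 Krt5 reads at opposite ends; the Lrig1 control libraries have less Krt5 for their Krt14 than the others.

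K14 ablation was first set against K14 control. All 3 genes were higher in both K14 ablation libraries than in both K14 control libraries, and none passed the threshold, an adjusted p of 0.05, in limma, edgeR or DESeq2 (0 at an unadjusted p under 0.05 in each). Of all 18140 tested genes 27.4% were likewise higher without overlap, and 0.187% passed the threshold in either direction. Krt5 differed by 0.39 ± 0.43 (log2, SE), or 1.31-fold, with a 95% interval of -0.61 to 1.39 (limma adjusted p = 0.743). Krt14 differed by 0.37 ± 0.41, with an interval of -0.58 to 1.32 (limma adjusted p = 0.745). The Krt15 difference was 0.29 ± 0.15, with an interval of -0.05 to 0.63 (limma adjusted p = 0.456). In bulk RNA, fewer cells of a type and less RNA per cell cannot be told apart. The SE comes from all 8 libraries and so takes in the spread of the Lrig1 ablation pair; without both Lrig1 ablation libraries, a choice made after seeing the data, no member passed either, and 2 of 3 had an unadjusted p under 0.05.

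The Lrig1 population had no member call on ablation, where 4.06% of tested genes passed. It was so in limma, edgeR and DESeq2, with 0 members at an unadjusted p under 0.05 in each. Krt5 averaged 0.45 ± 0.43 above Lrig1 control (log2, SE; limma adjusted p = 0.621), with an interval of -0.55 to 1.45. Krt14 differed by 0.04 ± 0.41, with an interval of -0.91 to 0.99 (limma adjusted p = 0.970), and Krt15 by 0.17 ± 0.15, with an interval of -0.17 to 0.52 (limma adjusted p = 0.573). For Krt5 and Krt14 these means stand for no library, since library 1 was above and library 2 below both controls. Without library 1 of Lrig1 ablation the Krt5 difference was -0.26 and that of Krt14 -0.62; without library 2 they were 1.16, which passed (limma adjusted p = 0.0143), and 0.70. Krt15 was higher in both ablation libraries than in both controls, as were 21.4% of tested genes. With quantile normalisation the differences were 1.28 for Krt5, 0.72 for Krt14 and 0.48 for Krt15 (limma adjusted p = 0.148, 0.326 and 0.0919), and with equal totals 0.70, 0.29 and 0.42 (limma adjusted p = 0.326, 0.675 and 0.108).

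The same libraries differed in other basal genes. The 7 basal markers, which include the members, summed to 209180 in library 1 and 90747 in library 2 of Lrig1 ablation, against 107220 and 116750 in Lrig1 control. Most of that sum was Krt5 and Krt14 in both Lrig1 ablation libraries. The markers outside the members, in libraries 1 and 2, were Col17a1 at 28120 and 11917 and Itga6 at 9001 and 4516. Itgb4 was at 8202 and 4053, and Trp63 differed less, at 8296 and 6644. The sum of the 6 upper follicle markers went the other way, with 15759 in library 1 and 30522 in library 2 of Lrig1 ablation, against 49726 and 51961 in Lrig1 control. Krt79, at 4961 and 15797, made most of that step, and Lrig1, Plet1 and Gata6 were also higher in library 2. Krt17 was near level at 7190 and 7359, and Lgr6 at 926 and 904. Against Lrig1 control Lgr6 was called higher and Krt17 lower (limma adjusted p = 0.0332 and 0.0465), where 4.06% of all tested genes passed in either direction. None of either list was at 0. Their part in the Krt5 and Krt14 values was not tested.

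Neither the difference of the ablation effects between populations (0.198% of tested genes passed) nor their mean (2.83% passed) was called for a member by limma, edgeR or DESeq2. At an unadjusted p under 0.05 there were 0 members for the difference in all of these tools, and for the mean 0 in limma and 1 each in edgeR and DESeq2. The ablation effect in Lrig1 minus that in K14 was 0.06 ± 0.61 for Krt5, -0.33 ± 0.59 for Krt14 and -0.12 ± 0.21 for Krt15 (log2, SE; limma adjusted p = 0.975, 0.830 and 0.829). The intervals, -1.35 to 1.47 for Krt5, -1.67 to 1.02 for Krt14 and -0.60 to 0.37 for Krt15, leave room for sizeable differences either way. Without library 1 of Lrig1 ablation the Krt14 effect differed by -0.98 and passed (limma adjusted p = 0.0446). The mean ablation effect was 0.42 ± 0.31 for Krt5, 0.21 ± 0.29 for Krt14 and 0.23 ± 0.11 for Krt15 (log2, SE; limma adjusted p = 0.519, 0.767 and 0.288). Without library 2 of Lrig1 ablation the mean effects of Krt5 and Krt14 were 0.77 and 0.53 and both passed (limma adjusted p = 0.0114 and 0.0329).

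Krt15 rose in Lrig1 control against K14 control, and it was the one member called in any comparison. The difference was 0.82 ± 0.15 (log2, SE), or 1.76-fold, with a 95% interval of 0.48 to 1.16 (limma adjusted p = 0.0163), also called by edgeR and DESeq2, in a comparison where 8.79% of tested genes passed and 6.52% passed as higher. Both Lrig1 control libraries were above both K14 control libraries, as for 34.5% of tested genes. Krt5 and Krt14 lay in the other direction, with both Lrig1 control libraries below both K14 control libraries, as for 34.4% of tested genes. Their differences were -0.80 ± 0.43 for Krt5 and -0.49 ± 0.41 for Krt14 (limma adjusted p = 0.306 and 0.531), with intervals of -1.80 to 0.20 and -1.44 to 0.47.

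These calls changed with the libraries in the fit, and the cause was not tested. Leaving out a control library leaves a single library in its group, and calls over all tested genes fell then as well. The Krt15 call was lost without any 1 of the 4 control libraries (limma adjusted p = 0.176 without K14 control 1, 0.163 without K14 control 2, 0.128 without Lrig1 control 1 and 0.185 without Lrig1 control 2), with a difference of 0.75 to 0.89 in each case. The Krt5 difference of -0.80 passed without library 1 or library 2 of Lrig1 ablation (limma adjusted p = 0.0143 and 0.0162), and without both of them (limma adjusted p = 0.0162, chosen after seeing the data). With the control libraries alone in the fit both partners passed (limma adjusted p = 4.7e-07 for Krt5 and 6.82e-05 for Krt14). That fit also called 3504 of all 17057 tested genes lower and 3819 higher.

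Between the ablated populations the pattern was alike in sign, without a call by limma (1 member at an unadjusted p under 0.05) or edgeR, where 0.667% of tested genes passed; DESeq2 called Krt15 (adjusted p = 0.00472). The difference of Lrig1 ablation from K14 ablation was 0.70 ± 0.15 for Krt15 (log2, SE; limma adjusted p = 0.0914; interval 0.36 to 1.04). It was -0.74 ± 0.43 for Krt5 and -0.81 ± 0.41 for Krt14 (limma adjusted p = 0.422 and 0.367). Every Krt15 value in Lrig1 ablation was above those in K14 ablation, as for 19% of tested genes, and every Krt5 and Krt14 value was below, as for 20% of them. Krt15 passed without library 1 (0.61, limma adjusted p = 0.0133) and without library 2 of Lrig1 ablation (0.79, limma adjusted p = 0.0491). Without library 1, Krt5 and Krt14 passed as well, at -1.45 and -1.47 (limma adjusted p = 0.00431 and 0.0038).

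Bulge and other compartment markers moved with the population. The 7 bulge markers, Krt15 included, summed to 11552 and 11417 in Lrig1 control, against 4499 and 4728 in K14 control. Krt15 itself made up 5327 and 5895 of these sums in Lrig1 control and 3151 and 3205 in K14 control. Of the 7, 5 were called higher, namely Krt15, Lhx2, Tbx1 and the stem cell factors Sox9 and Nfatc1. Cd34 and Lgr5 did not pass. The suprabasal markers summed to 93644 and 107380 in Lrig1 control, against 62300 and 57756 in K14 control, and mitochondrial reads were 6.29 and 6.89% in Lrig1 control, against 2.91 and 2.90% in K14 control. The 6 dissociation stress genes summed to 38205 and 35555 in Lrig1 control, against 71259 and 76687 in K14 control, and 4 of them were called lower. The 6 upper follicle markers summed to 49726 and 51961 in Lrig1 control, against 7301 and 7423 in K14 control, with 4 called higher. For all the lists of this comparison, 6.52% of all tested genes were called higher and 2.27% lower. Markers of cells from outside the epithelium were higher as well. Those of endothelial and mural cells summed to 549 and 634 in Lrig1 control, against 90.4 and 66.9 in K14 control (3 called higher), and those of myeloid and Langerhans cells to 835 and 1139, against 281 and 419 (4 called higher). Fibroblast markers summed to 190 and 296 in Lrig1 control, against 85.3 and 92.5 in K14 control (3 called higher). Of all these lists only Kdr and Lum were at 0 in a group, both in K14 control, and the part of these markers and reads in the keratin differences was not tested.

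**Figure D3:**
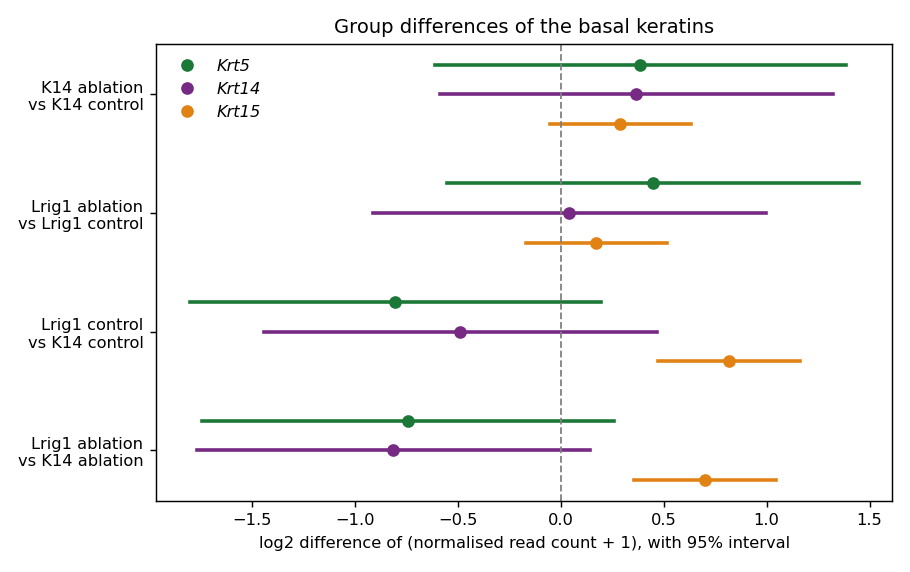
Difference (horizontal axis, log2 of normalised read count + 1) of Krt5, Krt14 and Krt15 in 4 comparisons. Points are estimates and bars 95% intervals from limma over 8 libraries. Only the Krt15 intervals of the Lrig1 against K14 comparisons (0.48 to 1.16 in control and 0.36 to 1.04 in ablation) exclude 0, and after adjustment over all genes the control one passed.

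Ratios within a library do not depend on how libraries are scaled. Krt5 and Krt14 were near parity: Krt5 divided by Krt14, in normalised reads, was 1.02 and 1.06 in K14 ablation, 1.02 and 1.03 in K14 control, 1.13 and 1.06 in Lrig1 ablation, and 0.795 and 0.854 in Lrig1 control. The Lrig1 ablation libraries, whose Krt5 levels differed 2.66-fold, thus had ratios near one another, and the Lrig1 control libraries had the lowest of all. Ablation minus control within populations gave a log2 ratio difference of 0.21, or 1.16-fold (two-sided exact permutation p = 0.167, adjusted 0.333). For Lrig1 minus K14 within conditions it was -0.12 (two-sided exact permutation p = 0.278, adjusted 0.417). The smallest p that the 36 arrangements allow is 0.0556, so neither test could have passed. The 0.21 averages over populations that were unlike. The K14 ablation ratios lay on either side of the K14 control ratios, whereas both Lrig1 ablation ratios were above both Lrig1 control ratios. With Gm44323 added to Krt5 the ratio was 1.33 and 1.40 in K14 ablation, 1.37 and 1.36 in K14 control, 1.50 and 1.45 in Lrig1 ablation, and 1.13 and 1.17 in Lrig1 control, so the order at the low end stayed.

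Krt15 made up more of the type I basal pair in the Lrig1 libraries. Krt15 divided by Krt14 was 0.0964 and 0.211 in Lrig1 ablation and 0.128 and 0.133 in Lrig1 control, against 0.0487 and 0.0514 in K14 ablation and 0.0514 and 0.0541 in K14 control. All 4 Lrig1 libraries exceeded all 4 K14 libraries. The Lrig1 minus K14 difference within conditions was 1.41 (log2), or 2.66-fold, and for Krt15 over Krt5 it was 1.53, or 2.89-fold. Each gave a two-sided exact permutation p of 0.0556, which is the smallest that the 36 arrangements allow, and 0.167 after adjustment over 6 ratio tests, so this design could not reach 0.05. The ablation minus control differences of these ratios were 0.03 for Krt15 over Krt14 and -0.19 for Krt15 over Krt5 (two-sided exact permutation p = 0.944 and 0.722).

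**Figure D4:**
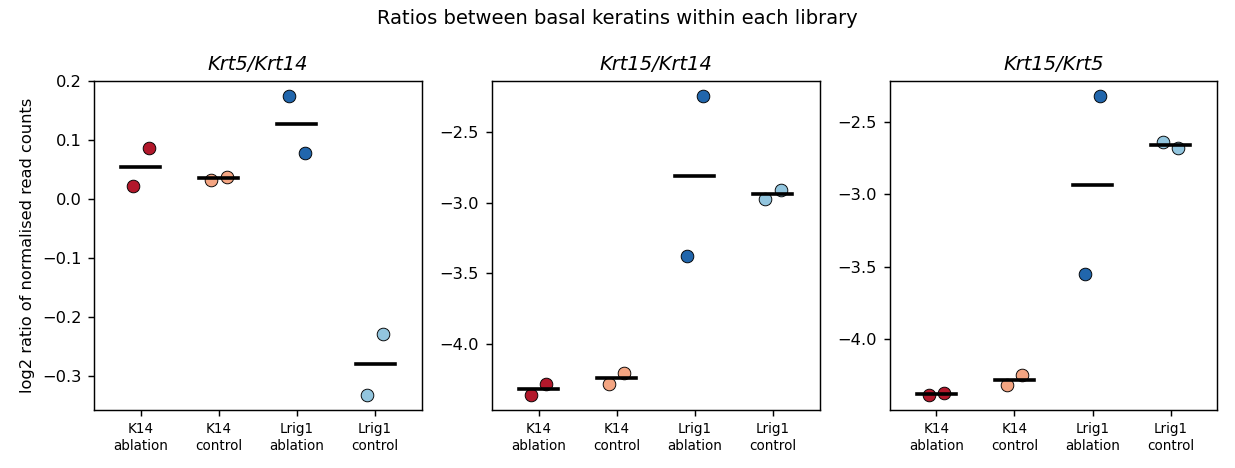
Ratios of Krt5 to Krt14, Krt15 to Krt14 and Krt15 to Krt5 in each library (vertical axis, log2 ratio of normalised read counts, with its own range for each ratio). Points are libraries and lines group means (n = 2). The Lrig1 control libraries are lowest for Krt5 over Krt14 at -0.33 and -0.23, and all Lrig1 libraries are above the K14 libraries for both Krt15 ratios.

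Within the keratin pool, all 55 keratin genes together, the basal keratins took very different shares. They made up 57.1 and 61.8% of keratin reads in K14 ablation, 49.6 and 49.6% in K14 control, 71.3 and 50.3% in Lrig1 ablation, and 25.3 and 24.6% in Lrig1 control. The Wilson 95% interval of these shares is at most 0.246 percentage points to either side and covers counting error only. Every ablation library was above the controls of its population. Keratins as a whole were 1.74 to 3.92% of all reads, and the lowest value was in Lrig1 ablation library 2. Among type II keratins Krt5 held 52.4 and 59.4% in K14 ablation, 47.4 and 46.8% in K14 control, 69.0 and 44.7% in Lrig1 ablation, and 19.7 and 19.9% in Lrig1 control (Wilson 95% interval at most 0.338 points to either side). Among type I keratins Krt14 held 59.8 and 61.4% in K14 ablation, 49.4 and 50.1% in K14 control, 67.3 and 46.6% in Lrig1 ablation, and 28.0 and 26.5% in Lrig1 control (at most 0.355 points to either side).

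Krt15 was a small part of the type I pool in the K14 populations, at 2.91 and 3.16% in ablation and 2.54 and 2.71% in control, and a larger one at 6.49 and 9.85% in Lrig1 ablation, against 3.57 and 3.53% in Lrig1 control (Wilson 95% interval at most 0.212 points to either side). These shares fall when other keratins rise. In Lrig1 control Krt10, the type I keratin of differentiating cells, took 21.0 and 22.0% of keratin reads and the hard keratins Krt36 and Krt84 15.7 and 16.1%. In Lrig1 ablation Krt10 took 7.43 and 13.3% and that hard pair 1.75 and 1.93%.

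**Figure D5:**
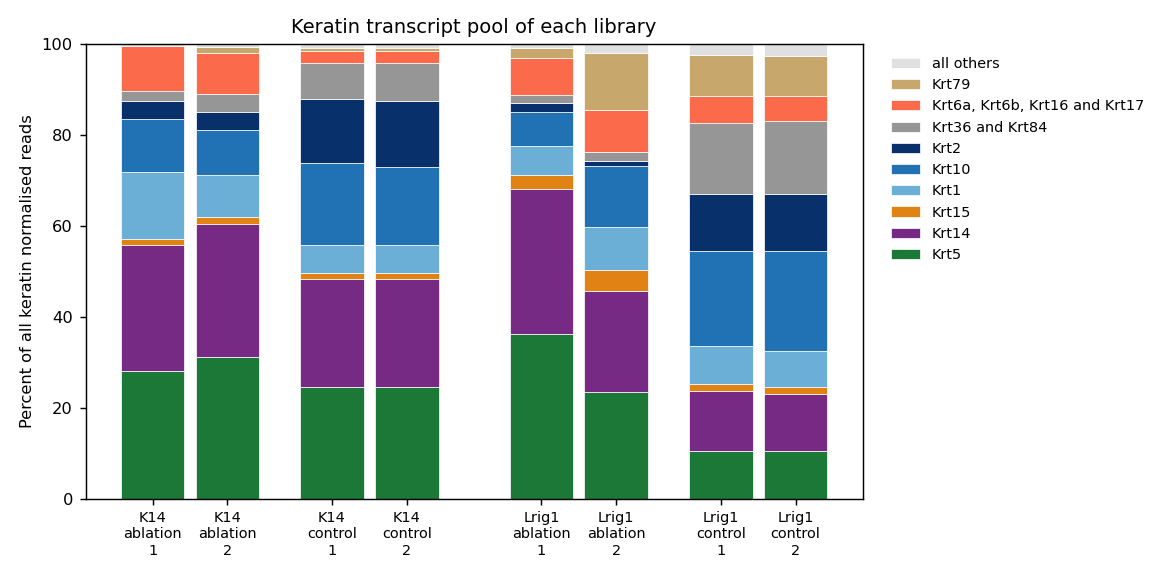
Percent of all keratin normalised reads (vertical axis, from 0) held by keratin genes or groups in each of the 8 libraries, with 1 bar a library. The basal keratins at the foot of the bars reach 71.3% in Lrig1 ablation library 1 and 24.6% in Lrig1 control library 2.

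Other keratins passed where the basal ones did not. In this and the lists below, a fit without 1 library leaves a single library in its group. Calls over all tested genes fell without a control library, and in most comparisons rose without a Lrig1 ablation library. Counts of a list in such fits are thus not particular to that list. Of the 15 other keratins with a mean of at least 100 normalised reads, 7 fell in Lrig1 ablation against Lrig1 control, where 3.3% of all tested genes were called lower: Krt84, Krt36, Krt24, Krt2, Krt10, Krt80 and Krt17. Without either Lrig1 control library 1 of them was called, and without either K14 control library 5. Krt84 had 2465 and 1693 normalised reads in Lrig1 ablation and 31890 and 36926 in Lrig1 control, a difference of -4.07 ± 0.23 (log2, SE; limma adjusted p = 0.00101). Krt2 differed by -3.98 and Krt10 by -2.13 (limma adjusted p = 0.00457 and 0.00602). The median of these 15 was -1.49, against -0.02 for all tested genes, and without library 2 of Lrig1 ablation 8 were lower and 3 higher. In K14 ablation 1 of the 15 was called, Krt17, which rose by 1.70 ± 0.17 (log2, SE; limma adjusted p = 0.0159; 0.0992% of all tested genes were called higher), with 5723 and 7274 normalised reads in K14 ablation against 1901 and 2082 in K14 control, and the median was -0.29, against -0.0018 for all tested genes. DESeq2 called 5 of the 15 higher and 4 lower there, and limma without both Lrig1 ablation libraries 4 each way. Without any 1 of the 4 control libraries limma called 0 of the 15 there (9 to 11 at an unadjusted p under 0.05). The other wound keratins had differences of 1.94 for Krt6a, 2.55 for Krt6b and 1.85 for Krt16 there, none of which passed (limma adjusted p = 0.0933, 0.128 and 0.172).

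Between controls 6 of the 15 rose in Lrig1 against K14, namely Krt17, Krt80, Krt84, Krt77, Krt79 and Krt24, and none fell, with a median of 0.88, against -0.0049 for all tested genes, of which 6.52% were called higher. Without either K14 control library limma called 1 of the 15 there, and without either Lrig1 control library 0 (7 at an unadjusted p under 0.05 each time). Without both Lrig1 ablation libraries 9 were called higher and 2 lower, and DESeq2 called 10 higher. Krt79, a keratin of the upper follicle, differed by 4.51 ± 0.85 and Krt17 by 2.65 ± 0.17 (log2, SE; limma adjusted p = 0.0178 and 0.00119). Between the ablated populations Krt16 was called lower in Lrig1, with a log2 difference of -2.81 (limma adjusted p = 0.0358), with 1717 and 583 normalised reads in Lrig1 ablation against 8310 and 5935 in K14 ablation. It was the 1 call among the 15 by limma, where 0.667% of all tested genes passed, whereas DESeq2 called 7 lower. Limma called more of the 15, in both directions, without library 1 of Lrig1 ablation. It lost the call without any 1 of the 4 control libraries. Calls over all tested genes rose and fell likewise in these fits.

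The anchors of the basal filament were examined as a list of 12 hemidesmosome and desmosome genes. None was called in K14 ablation by limma, edgeR or DESeq2 (0, 0 and 1 at an unadjusted p under 0.05), with a median of -0.04. In Lrig1 ablation 4 of the 12 fell and none rose, with a median of -0.32: Evpl at -1.64, Jup at -1.11, Ppl at -1.03 and Pkp1 at -0.92 (log2, where 3.3% of all tested genes were called lower; limma adjusted p = 0.00552, 0.0156, 0.0326 and 0.0415). DESeq2 called 5 lower and 2 higher there, and limma called 6 lower without library 1 and 5 lower and 4 higher without library 2 of Lrig1 ablation. It called 1 lower without either K14 control library, and 0 without either Lrig1 control library (5 without control 1 and 4 without control 2 at an unadjusted p under 0.05). The 4 genes encode envoplakin, plakoglobin, periplakin and plakophilin 1, which belong to desmosomes or the cornified envelope. The hemidesmosome genes that hold Krt5 and Krt14 filaments at the basement membrane did not pass. Itgb4, an integrin chain of the hemidesmosome, had 8202 and 4053 normalised reads in Lrig1 ablation and 3551 and 3320 in Lrig1 control, and Col17a1 had 28120 and 11917 in Lrig1 ablation and 12639 and 13978 in Lrig1 control. Col17a1 split these libraries as Krt5 did. Between controls Evpl and Ppl were higher in Lrig1 than in K14 by 1.09 and 0.98 (limma adjusted p = 0.0134 and 0.0236), where 6.52% of all tested genes were called higher. There 0 of the 12 were called lower, against 2.27% of all tested genes, and the median was 0.24. At an unadjusted p under 0.05 there were 7 of either direction, and DESeq2 and the fit without both Lrig1 ablation libraries each called 4 higher and 4 lower, whereas limma called 0 without any 1 of the control libraries (4 or 5 at an unadjusted p under 0.05). None of the 12 was called between the ablated populations by limma, edgeR or DESeq2, where 0.667% of all tested genes passed in limma. The median there was -0.37, and 4 had an unadjusted p under 0.05 in each tool. Without library 1 of Lrig1 ablation limma called some of the 12 lower, and it called more of all tested genes as well.

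A list of 14 companions of the basal layer had no call on ablation in either population by limma or edgeR. DESeq2 called 8 of them as higher in Lrig1 ablation, and 280 of the 15326 genes to which it gave an adjusted p. Limma called genes of the list in both directions without library 1 of Lrig1 ablation, and only higher ones without library 2. Each of these fits has a single library in that group, and more of all tested genes were called in it as well. In Lrig1 ablation 13 of the 14 estimates were positive, with a median of 0.78, against 48.4% of all tested genes positive, and 9 had an unadjusted p under 0.05. The ones with the smallest p were Fermt1, which encodes an integrin activator, at 0.63, and Col7a1, the anchoring fibril collagen, at 0.80 (log2; limma adjusted p = 0.0656 and 0.0755). In K14 ablation 7 of 14 were positive, with a median of 0.06 and 1 at an unadjusted p under 0.05. Bcam, a laminin receptor, had the smallest p there, with a difference of 0.78 (limma adjusted p = 0.386), and without both Lrig1 ablation libraries 1 of the 14 passed. Col7a1 and Lama3 fell in Lrig1 control against K14 control, with differences of -1.62 and -1.04 (log2, where 2.27% of all tested genes were called lower; limma adjusted p = 0.00525 and 0.0202). Lama3 encodes a laminin chain of the basement membrane, and the list's median there was -0.89. Without both Lrig1 ablation libraries 10 of the 14 were called lower, and without any 1 of the control libraries 0 (5 or 6 at an unadjusted p under 0.05). Trp63, the basal master regulator, was at 8296 and 6644 normalised reads in Lrig1 ablation and 6453 and 6745 in Lrig1 control.

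Among 24 transcription factors known to act on Krt5 or Krt14, none was called in K14 ablation by limma (3 at an unadjusted p under 0.05, median -0.17) or edgeR, and DESeq2 called 2 lower. Without both Lrig1 ablation libraries 3 passed as lower. Fosl1, an AP-1 subunit, and Klf4, a factor of differentiation, had the smallest p there, at -1.14 and -0.86 (log2; limma adjusted p = 0.167 and 0.169). In Lrig1 ablation 4 of the 24 fell and none rose, where 3.3% of all tested genes were called lower, with a median of -0.31: Grhl3 at -1.87, Cebpa at -1.45, Grhl1 at -1.28 and Klf4 at -0.95 (limma adjusted p = 0.0115, 0.0134, 0.0483 and 0.0381). All of these are known for roles in keratinocyte differentiation. edgeR called 2 lower there and DESeq2 6. Limma called 6 lower without either library of Lrig1 ablation, 2 without either K14 control library and 0 without either Lrig1 control library (7 without control 1 and 8 without control 2 at an unadjusted p under 0.05). Between controls 3 of the 24 were lower in Lrig1, among them Fosl1 at -1.49 and Jun at -1.04, and 3 were higher, among them Grhl3 at 1.25 and Cebpa at 1.05 (limma adjusted p = 0.0133, 0.0193, 0.0247 and 0.0232), and without any 1 of the control libraries 0 of the 24 were called there (7 or 8 at an unadjusted p under 0.05). Over all tested genes 6.52% were called higher and 2.27% lower between controls, and Jun is also in the dissociation stress list. Junb was lower in Lrig1 ablation than in K14 ablation, with a log2 difference of -1.01 (limma adjusted p = 0.0419) and was the 1 call in the list there, where 0.667% of all tested genes passed. DESeq2 called 3 lower, and limma 7 lower and 1 higher without library 1 of Lrig1 ablation and 0 without any 1 of the control libraries (6 at an unadjusted p under 0.05).

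The suprabasal program, which follows the basal keratins when cells differentiate, fell in Lrig1 ablation, with 12 of 16 genes called lower, none higher and a median of -2.30, where 3.3% of all tested genes were called lower. These calls were lost without either Lrig1 control library, in fits with a single library in that group. Nearly all calls over all tested genes were lost in those fits too, so the loss is not particular to this list. Markers of other cells were lower in Lrig1 ablation as well, those of endothelial and mural cells with sums of 71.0 and 143 in Lrig1 ablation against 549 and 634 in Lrig1 control (3 called lower). Those of myeloid and Langerhans cells summed to 156 and 166 in Lrig1 ablation, against 835 and 1139 in Lrig1 control (2 called lower), and the part of these cells was not tested. The log2 difference was -6.05 for Hrnr, a cornified layer protein, and -3.88 for Krt78 (limma adjusted p = 0.00207 and 0.00197). Hrnr had 2.66 and 10.3 normalised reads in Lrig1 ablation, the first at a floor of 3 reads, against 395 and 462 in Lrig1 control. In K14 ablation none of the 16 was called, by limma or edgeR, with a median of -0.54 and 8 in limma and 7 in edgeR at an unadjusted p under 0.05; DESeq2 called 1 higher and 3 lower, and limma without both Lrig1 ablation libraries called 4 lower. In Lrig1 control against K14 control 11 of 16 were called higher and none lower, with a median of 2.13, where 6.52% of all tested genes were called higher. Nearly all of these calls were lost without any 1 of the control libraries, in fits with a single library in that group. Nearly all calls over all tested genes were lost there too.

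The genes whose levels ran most like those of each basal keratin were found by Pearson correlation of log2 values over the 8 libraries and 9599 genes, as a description in libraries that share depth and group. For Krt5 they were Plod1 (r = 0.993), Gm44323, Psap, Hist1h2ai and Gart. Plod1, a collagen lysyl hydroxylase, had 261 and 230 normalised reads in K14 ablation, 183 and 188 in K14 control, 227 and 92.3 in Lrig1 ablation, and 94.3 and 117 in Lrig1 control. Krt14 stood at rank 73 in the Krt5 list (r = 0.965). For Krt14 the closest were Wdr5, Ran, Pebp1, Cfl1 and Agpat5, with r of 0.991 to 0.993. For Krt15 they were Ankrd50 (r = 0.990), Sostdc1, Col8a1, Ptn and Slc12a2. Sostdc1, a secreted BMP and Wnt antagonist, had 1684 and 1764 normalised reads in Lrig1 ablation and 1143 and 1270 in Lrig1 control, against 696 and 786 in K14 ablation and 431 and 424 in K14 control. Krt15 itself ran apart from the other basal keratins, with r of -0.46 with Krt5 and -0.48 with Krt14.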

How the data were processed

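Per the labels' protocols, RNA of the sorted cells was extracted with the RNeasy Micro kit and sequenced as Ovation Solo libraries. Per the submitters' processing notes, Trimmomatic, STAR, Picard and HTSeq (version 0.11.1) were used on build GRCm38; the sources used here do not give their roles and settings, the strand setting, the annotation or the size-factor program. The authors' deposited table holds a normalised signal for 32574 genes in 8 libraries. Values are multiples of 1 step per library, and 99.4 to 99.8% came out as whole reads within 0.001 normalised units, so reads and depth were recovered by division. A floor of 3 reads is 2.12 to 4.23 normalised reads and, like the Wilson intervals of shares, covers counting error only, since amplified reads are not independent molecules. In that table the 4 ablation columns carry "Exp" where the labels have "Abl", and were matched by population and number (K14Exp1.1 as replicate 1).

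Tests used limma 3.58.1 in R 4.3.3 on log2(normalised read count + 1), which understates changes of low genes, with a variance trend and 4 group means over 8 libraries. A gene was tested where at least 2 libraries had 1e-06 of their total (18140 genes). P-values were adjusted by Benjamini-Hochberg over all tested genes. Ratios were tested by exact permutation of libraries within population or condition. Coordinates and sequences came from GENCODE release M21, and levels per kilobase used its transcript lengths. The count tests, edgeR 4.0.16 (quasi-likelihood) and DESeq2 1.42.0, ran on the recovered reads as alternatives, and edgeR called 32 genes in K14 ablation and 588 in Lrig1 ablation. DESeq2 called 94 genes higher and 127 lower of 14271 in K14 ablation and 280 and 717 of 15326 in Lrig1 ablation. Its counts were 1141 and 478 of 18140 between controls and 396 and 270 of 16381 between the ablated populations. Without both Lrig1 ablation libraries limma tested 17534 genes. It then called 325 higher and 368 lower in K14 ablation and 2048 and 1473 between controls. The scripts were tested on simulated data. Members, lists and tests were chosen with earlier results of these data known. Named genes were those past the threshold (up to 4 a list, and 10 for other keratins) or, where none passed, the 2 with the smallest p. Any other gene given with values was chosen after its values were seen. Counts over the lists, and values of Krt17 and Krt84, under left-out libraries or other settings were added after seeing the data. Same-numbered libraries deviated together with correlations of -0.172 to 0.199 between groups, so the numbers were not taken to pair libraries. A gene and a sequence run of the lists and members are not reported here.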

Additional observations from a re-analysis of the deposited data

Results flagged for a closer look

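Some genes of the lists described beside the basal keratins had ablation effects that differed between the populations. Krt17, a keratin of wounded epidermis and follicles, rose on ablation in K14 and fell in Lrig1, and the difference of its effects, Lrig1 minus K14, was -2.48 (log2, limma adjusted p = 0.0384). The same difference was -2.83 for the hard keratin Krt84 (limma adjusted p = 0.0401). Neither call held with equal totals (limma adjusted p = 0.0573 for both), with quantile normalisation (0.0520), with the replicate block (0.0880) or without any 1 of the 4 control libraries (0.263 to 0.411), and that of Krt84 was also lost without a filter on low values (0.0661) and with a filter at 1e-05 (0.0529). The log2 difference stayed between -2.65 and -2.10 for Krt17 and between -3.10 and -2.43 for Krt84.

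In 5 further genes, among the basal keratins and the genes of the lists set beside them, every ablation library lay on one side of its controls in K14 and on the other side in Lrig1, without a called difference. Such separation is common with so few libraries. Of all tested genes 27.4% were higher without overlap in K14 ablation and 21.4% in Lrig1 ablation. The share of all tested genes that separated in opposite directions was not counted, so these genes are not shown to be unusual. Krt1 had a difference of effects, Lrig1 minus K14, of -2.13 (log2, limma adjusted p = 0.0754). It was 0.95 for Col7a1 (limma adjusted p = 0.204), 1.16 for Dst, the hemidesmosomal plakin (limma adjusted p = 0.222), -0.70 for Pkp3, a desmosomal plakophilin (limma adjusted p = 0.255), and -0.50 for Rarg, a retinoic acid receptor (limma adjusted p = 0.289). Krt5, Krt14 and Krt15 did not meet either condition.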

How the results depend on the processing

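The replicate block, taken with no pairing of the libraries shown, changed no member's call: with a replicate block the K14 ablation count was 21 genes and that of the difference of effects 1. Of the member results under alternatives, 335 kept direction and side of the threshold, 18 newly passed, 4 no longer passed and 9 reversed.

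Reversed were the difference of effects of Krt14 by quantile normalisation (0.36) and of Krt15 by equal totals (0.11) and quantile normalisation (0.13). Equal totals moved the median of all tested genes to 0.23 for Lrig1 ablation, 0.19 for the difference of effects, 0.11 between the ablated populations and 0.12 for the mean effect. Between controls, Krt5 (-0.80) passed with array weights (limma adjusted p = 0.00475), with only the groups compared (4.7e-07) and without both Lrig1 ablation libraries (0.0162), and Krt14 (-0.49) with array weights (0.0418) and only the groups compared (6.82e-05). Over all tested genes, 3218 of 18140 were called lower between controls with array weights and 3504 of 17057 with only the groups compared. Krt15 between the ablated populations passed with equal totals (0.83), quantile normalisation (0.88) and DESeq2 (0.72).

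The number of called genes moved. For K14 ablation (34 as reported) it was 221 by DESeq2, 477 with array weights, 0 with only the groups compared (3452 at an unadjusted p under 0.05) and 693 without both Lrig1 ablation libraries. For Lrig1 ablation (737) it was 451 with array weights and 170 with only the groups compared. For the difference of effects (36) it was 98 with a pseudocount of 10, 5 without a filter, 2 with a filter at 1e-05, 0 with equal totals (2877 at an unadjusted p under 0.05), 5 by quantile normalisation, 303 by DESeq2 and 146 with array weights. Between controls (1594) it was 6747, 7323 and 3521 with array weights, with only the groups compared and without both Lrig1 ablation libraries. Between the ablated populations (121) it was 75 without a filter, 72 with a filter at 1e-05, 666 by DESeq2, 31 with array weights and 0 with only the groups compared (1277 at an unadjusted p under 0.05). For the mean effect (513) it was 920 by DESeq2 and 812 with array weights. The cause was not tested.

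Leaving out 1 library at a time, with the lone library assumed to vary like the other groups, gave these ranges of the log2 difference. In K14 ablation Krt5 ranged over 0.36 to 0.41, Krt14 over 0.33 to 0.40 and Krt15 over 0.28 to 0.30. In Lrig1 ablation they ranged over -0.26 to 1.16, -0.62 to 0.70 and 0.08 to 0.27. Their difference of effects ran over -0.64 to 0.77, -0.98 to 0.33 and -0.21 to -0.03, and without Lrig1 control 1 that of Krt5 was -0.03. The ranges between controls were -0.89 to -0.71, -0.53 to -0.45 and 0.75 to 0.89, and between the ablated populations -1.45 to -0.033, -1.47 to -0.15 and 0.61 to 0.79. For the mean effect they were 0.065 to 0.77, -0.12 to 0.53 and 0.19 to 0.28. Called genes ranged over 0 to 740 for K14 ablation, 5 to 2498 for Lrig1 ablation, 0 to 2022 for the difference of effects, 1 to 3539 between controls, 0 to 4041 between the ablated populations and 44 to 2592 for the mean. Where a count reached 0, between 835 and 2208 genes had an unadjusted p under 0.05. Ablation minus control of Krt15 over Krt14 ranged over -0.26 to 0.31 and of Krt15 over Krt5 over -0.49 to 0.12.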
